A study of Homo sapiens with 6 samples.

Results

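The miRNAs examined here were those numbered from miR-6716 to miR-6895, with any letter or arm suffix. They were picked by name alone from a table of miRNA counts in MDA-MB-231 cells. This gave 208 of the 1582 miRNAs in the table (13.1%), of which 1498 carry human names. Of the members, 108 come from the 5p arm of their hairpin and 99 from the 3p arm, and miR-6844 has no arm suffix. Together they belong to 139 hairpin genes. Both arms were listed for 69 hairpins, the 5p arm alone for 39 and the 3p arm alone for 30.

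MDA-MB-231 is an established human breast cancer line and a common model of triple-negative breast cancer (TNBC), a subtype without estrogen receptor, progesterone receptor or HER2 amplification. Small RNA from 3 libraries of control cells was compared with 3 libraries of cells that received a lentivirus encoding RARαS77A, to find miRNAs that differ when this receptor is present. RARαS77A is the retinoic acid receptor α with alanine in place of serine 77, so that this residue cannot be phosphorylated. The control cells were not transfected, and an effect of the virus cannot be told apart from that of the mutant receptor. All cells shared the same line background, and no agonist or other agent is named in the labels of either group.

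A miRNA is cut from a hairpin RNA, and either strand of the hairpin stem (the 5p or the 3p arm) can be loaded into an Argonaute protein. The loaded strand finds its mRNA targets mainly through the seed, bases 2 to 8. Most hairpins are released from a longer transcript by the nuclease Drosha. A mirtron is instead a hairpin whose ends are set by splicing: in the classic form the whole intron folds into the hairpin, and in a tailed form only 1 end of the hairpin coincides with a splice site, the rest of the intron being trimmed away. Known mirtrons are in general low in abundance.

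Mature sequences of the series were taken from RefSeq (GRCh38.p14), which gave a sequence for 183 of the 208 members. The 3p arms among the most abundant members that have a sequence here are shown first, with the seed and the last 2 bases in capitals, because an intron ends in AG. The first 2 of these miRNAs end in AG, while miR-6753-3p and miR-6772-3p stop 4 bases and 1 base before the intron does.
hsa-miR-6873-3p: uUCUCUCUgucuuucucucucAG
hsa-miR-6806-3p: uGAAGCUCugacauuccugcAG
hsa-miR-6753-3p: uGGUCUGUcucugcccuggcAC
hsa-miR-6772-3p: uUGCUCCUgacucugugcccaCA
The 5p arms among the most abundant members that have a sequence here follow, with the seed alone in capitals.
hsa-miR-6733-5p: uGGGAAAGacaaacucagaguu
hsa-miR-6854-5p: aAGCUCAGguuugagaacugcuga
hsa-miR-6734-5p: uUGAGGGGagaaugagguggaga
hsa-miR-6724-5p: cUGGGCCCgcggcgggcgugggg

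The 3p arms of the series were rich in pyrimidines and ended like introns. Of 90 members from the 3p arm with a sequence, 73.3% ended in AG and 62.2% in CAG. Of 451 other human miRNAs from the 3p arm in the table, 11.3% ended in AG and 6.65% in CAG. Cytosine and uracil made up 72.2% of the bases of the 3p members and 54.0% of those of the others. The 5p arms were instead rich in guanine. A run of GGG was present in 84.9% of 93 members from the 5p arm and in 31.8% of 434 other miRNAs from that arm, and GGGG in 46.2% and 10.8%. Guanine made up 46.9% of the bases in the 5p members and 29.0% in the others. Few 5p members opened with GU, the first bases of an intron (7.53%, against 4.38% of the others). These shares describe sequences only, and motifs were read on the miRNA strand.

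Seeds were mostly private. The 183 sequences held 174 distinct seeds, and 17 members shared their seed with another member. The commonest seed, UGGGGUG, was that of 3 members, all from the 5p arm, shown here because the rest of each sequence differs.
hsa-miR-6737-5p: uUGGGGUGgucggcccuggag
hsa-miR-6812-5p: aUGGGGUGagauggggaggagcagc
hsa-miR-6819-5p: uUGGGGUGgagggccaaggagc
They were rare, with 1, 8 and 2 counts over all 6 libraries. Another pair joins miR-6733-5p (above) to miR-6739-5p, and it is shown because miR-6733-5p was higher in RARαS77A cells.
hsa-miR-6739-5p: uGGGAAAGagaaagaacaagua
miR-6739-5p had 1 count in all, in control replicate 2. Of the series, 18 members shared a seed with a miRNA of the table outside it. The member with most such partners was miR-6838-5p, whose seed AGCAGCA is that of the miR-15/16 family, with 6 family members in the table.
hsa-miR-6838-5p: aAGCAGCAguggcaagacuccu
miR-6838-5p had 4 counts, of which 2 were in control cells and 2 in RARαS77A cells. These miRNAs were picked for their seeds after the sequences had been seen.

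Hairpin positions in GENCODE 29 (GRCh38) showed the same feature from the gene side. The 139 hairpin genes have 148 loci, and 133 of these (89.9%) ended exactly at the 3′ splice site of a host intron. Among 881 loci of other human miRNAs in the table the figure was 39 (4.43%). Only 5 series hairpins filled a whole intron, and 2 met the intron at its 5′ end alone. A further 7 lay elsewhere in an intron and 6 outside introns. The hosts were protein-coding genes at 131 loci. With RefSeq 3p arms outside the table included, the mature 3p arm could be placed at 119 loci that end at a 3′ splice site, and at 95 of them its last base was the last base of the intron.

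The label of short introns held for a minority of the hairpins. The host intron was at most 120 bases long at 37 of 148 loci (25.0%), and its median length was 250 bases, with a range from 74 to 21908. Where the hairpin ended at the 3′ splice site, it began at a median of 179 bases after the 5′ splice site. The arrangement of most members is thus that of a hairpin at the 3′ end of an intron with a 5′ tail. For comparison, a list of mirtrons known before this series was numbered (the miR-877 and miR-1224 to miR-1238 genes) had 10 hairpins in the table, and all 10 filled a whole intron of at most 102 bases. The plot of hairpin position and intron length gives both distributions.

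**Figure D1:**
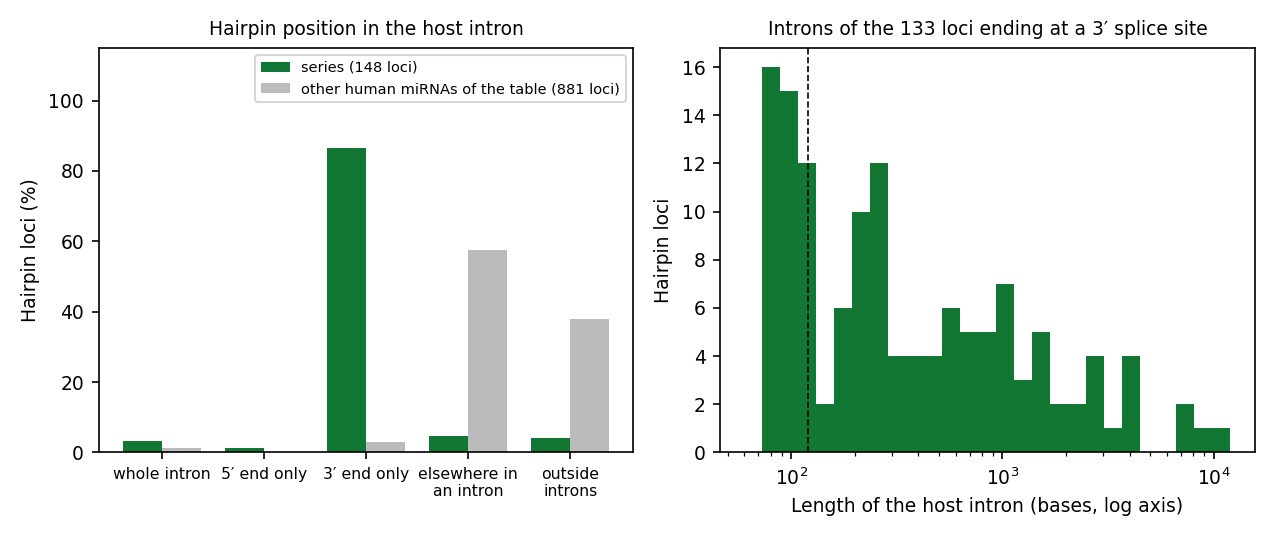
Left, the percentage of hairpin loci by their position in the host intron (x axis), for the 148 loci of the series (green) and 881 loci of other human miRNAs in the table (grey). Right, the number of series loci (y axis) by the length of the host intron in bases (log axis) for the 133 loci that end at a 3′ splice site; the dashed line marks 120 bases, and most loci lie to its right.

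The hairpins ending at a 3′ splice site supplied most of the reads, as they did most of the members. They accounted for 1478 of the 1631 counts of the series (90.6%), through 191 of the 208 members. Those in introns of at most 120 bases gave 332 counts over 48 members, and those in longer introns 1146 counts over 143 members. The remaining 17 members, not at a 3′ splice site, gave 153 counts. Per member, the median was 3 counts at a 3′ splice site and 5 elsewhere. The 5 hairpins that fill an intron gave 13 counts over 5 members, with a median of 2. MIR6807 in TRIM28 had 1 count and MIR6821 in PIM3 had 2, both from the 5p arm.

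The whole series was close to the floor of these libraries. Library totals lay between 9019266 and 11338580 counts, and the series held 260, 363 and 228 of them in control replicates 1 to 3 and 235, 276 and 269 in RARαS77A replicates 1 to 3. That is 0.00241% to 0.00320% of a library. Where a member had 0 counts, as many as 3 remain possible, which is 0.265 to 0.333 CPM (counts scaled to the library total) depending on the library. The reads carry no molecular identifiers, so floors and intervals cover counting error only. The median member had 3 counts over all 6 libraries, the same for both arms, against 20 for the 1290 other human miRNAs. A total of 53 members had a single count, and 107 had at most 3. Only 42 members reached 10 counts in sum over the libraries, and 4 reached a mean of 10 per library. The reads were unevenly spread, with 6.93% in miR-6866-5p, 21.0% in the 4 most abundant members and 35.1% in the 10 most abundant. RefSeq lists 305 mature miRNAs in this number range, and 122 of these had no row in the table.

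The libraries did not form clean groups. Of the lists of cell type markers, that for mesenchymal and basal breast cancer lines (11 rows) took 615356 to 709685 CPM and that for epithelial cells (8 rows) 94.3 to 133 CPM. The list for pluripotent stem cells (9 rows) summed to 0.185 and 0.0882 CPM in control replicates 1 and 2, with 7 of its rows at 0 in both, but to 446.8 CPM in control replicate 3 and 299.3 to 312 CPM in RARαS77A cells. Control replicate 2 stood apart in the liver rows (2 rows), with 8.91 CPM against 34.7 to 53.7 CPM elsewhere, and in the endocrine row, with 76.7 CPM against 1.76 to 5.99 CPM. It was also the library with the most series counts. Control replicate 1 stood apart in the muscle rows (4 rows), with 8.61 CPM against 0 to 1.22 CPM elsewhere. Blood rows (7 rows) took 11.1 to 26.3 CPM. Control replicate 3 therefore shares the pluripotent-type miRNAs with the RARαS77A libraries, and what part this has in the results below was not tested. The group of that library comes from its label alone, and whether the label is right was not tested. On log2 levels it correlated with the RARαS77A libraries (Pearson's r across miRNAs, 0.961 to 0.971) slightly more than with the other controls (0.956 and 0.957), while a chi-square of counts per degree of freedom placed it nearer the other controls (198 and 284, against at least 908 to RARαS77A libraries). Means of the control group below include it. In bulk RNA, fewer cells carrying a miRNA and less of it per cell cannot be told apart.

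Fewer members were detected in RARαS77A cells. At least 1 count was seen for 104, 120 and 97 members in control replicates 1 to 3 (mean 107 ± 11.8, SD, n = 3), and for 80, 82 and 91 in RARαS77A replicates 1 to 3 (mean 84.3 ± 5.86). The groups did not overlap. Without control replicate 3 the control mean was 112, and without control replicate 2 it was 100.5. When each library was scaled down to the smallest total, the expected number was 100.4 ± 7.06 for the controls, against 80.5 ± 5.21 with RARαS77A. Other human miRNAs moved the same way but by less, from 73.8 ± 2.11% of those listed to 68.3 ± 1.67%, beside 51.4 ± 5.67% and 40.5 ± 2.82% of the members. Whether the shift of the members was larger than that of the others was not tested.

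By arm, the groups were apart for the 3p arm alone. Members of the 3p arm were detected 54, 57 and 46 times in control replicates 1 to 3 and 36, 34 and 40 times in RARαS77A replicates 1 to 3, without overlap. For the 5p arm the numbers were 49, 63 and 51 against 44, 48 and 51, and the groups overlapped. With at least 3 counts required, 33, 52 and 29 members were detected in control cells and 23, 34 and 31 in RARαS77A cells (means 38 and 29.3), and the groups overlapped. With at least 10 required, the means were 3 and 4. Over the libraries of each group, 65 members were seen in control cells alone and 30 in RARαS77A cells alone, while 113 were seen in both. The members limited to control cells were rare, with at most 9 counts each (miR-6820-5p, with 3, 4 and 2) and 125 in sum. Those limited to RARαS77A cells had at most 4 counts each and 42 in sum. That is 31.3% and 14.4% of the members, beside 15.3% and 8.14% of the other human miRNAs (197 and 105 of 1290), which had more counts.

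The summed level of the series depended on how libraries were scaled. As CPM of total counts it was 27.1 ± 4.28 for the controls (SD, n = 3), against 26.0 ± 1.52 with RARαS77A, and the groups overlapped. With TMM factors, which set the bulk of miRNAs level between libraries, it was 20.9, 24.7 and 20.8 in control replicates and 29.9, 32.9 and 32.4 in RARαS77A replicates, without overlap (22.1 ± 2.21 and 31.7 ± 1.60). The log2 difference was 0.52 with TMM (0.48 without control replicate 3), 0.73 with upper quartile factors and -0.061 with total counts, so that its direction flipped. TMM factors averaged 1.22 in control cells and 0.820 in RARαS77A cells. Over the 506 miRNAs tested between the groups, the median log2 fold change was -0.51 under total counts and 0.06 with TMM. Values below are scaled with TMM unless stated.

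Counts from the 5p arm made up most of the difference seen with TMM. Their summed level was 11.3 ± 1.53 TMM CPM for the controls, against 18.2 ± 0.984 with RARαS77A, a log2 difference of 0.68. It was 0.46 without miR-6866-5p and 0.10 under total counts. The 3p arms averaged 10.8 ± 1.18 and 13.5 ± 1.05 TMM CPM, a log2 difference of 0.33 that turned to -0.25 under total counts. No test was run on these sums or on the numbers of members detected. The plot of detection and summed levels shows fewer members detected in RARαS77A cells and a higher TMM-scaled sum. These measures are scaled differently, as detection was counted without TMM factors. Under total counts the sum was not higher (27.1 CPM in control and 26.0 CPM in RARαS77A cells).

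**Figure D2:**
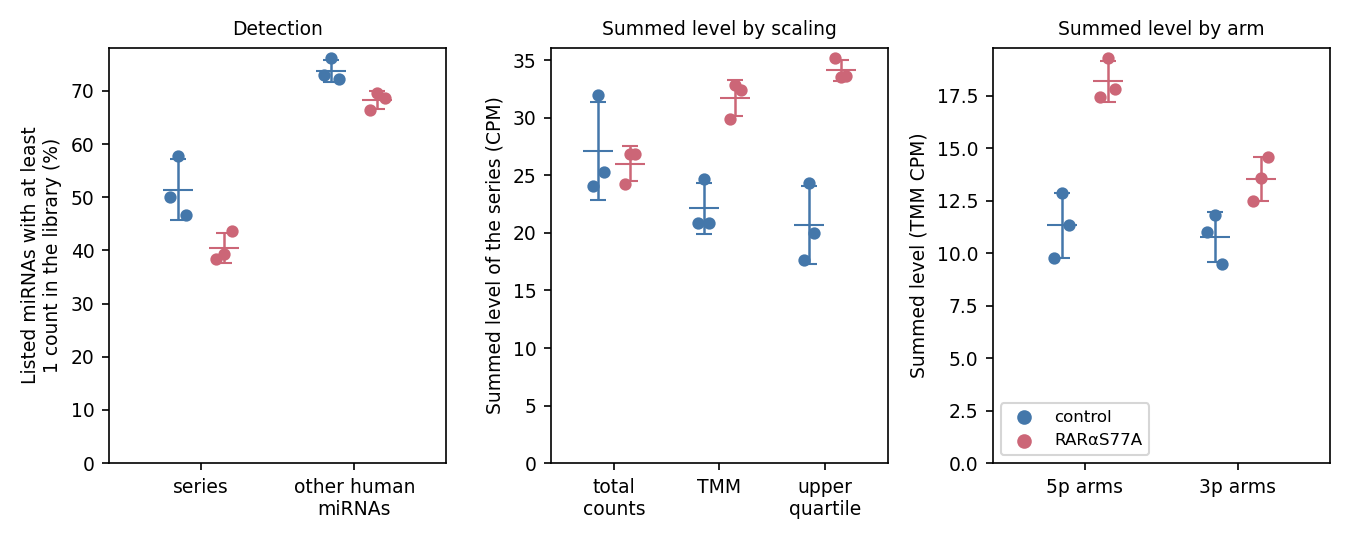
Each point is a library, and bars show the mean and SD of 3 libraries, in control (blue) and RARαS77A cells (red). Left, the percentage of listed miRNAs with at least 1 count, for the series and for other human miRNAs; middle, the summed level of the series in CPM under 3 scalings, where the groups overlap for total counts only; right, the summed level of each arm in TMM CPM.

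Across the table, 506 miRNAs had enough reads to be tested between the groups with edgeR's quasi-likelihood test. Only 4 of the 208 members were among them. The filter asked for at least 0.986 CPM in 3 libraries, so they are not a sample of the series. miR-6854-5p reached that level in 3 control and 2 RARαS77A libraries and miR-6873-3p in 3 and 1, so these entered through the control group. miR-6733-5p reached it in 3 RARαS77A and 0 control libraries and miR-6866-5p in 3 and 1. The latter pair thus entered the test through the group in which they were higher. The 2 calls are therefore given as calls on single miRNAs, and their number says nothing about the series. The lowest mean count among them was 10.7 per library (miR-6854-5p), and the highest among members left untested was 9.5 (miR-6772-3p). At a Benjamini-Hochberg adjusted p under 0.05, 2 members were higher in RARαS77A cells and 0 were lower. Among all 506 tested miRNAs, 23.3% were higher and 21.1% were lower. Under total counts 10.1% of them were higher and 42.1% lower, and by DESeq2 21.3% and 21.7%. The 0 lower members stayed 0 by DESeq2, by limma and at an unadjusted p under 0.05, since the 2 members not called had unadjusted p-values of 0.743 and 0.919 in edgeR. Counts of the most abundant members are plotted by library.

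**Figure D3:**
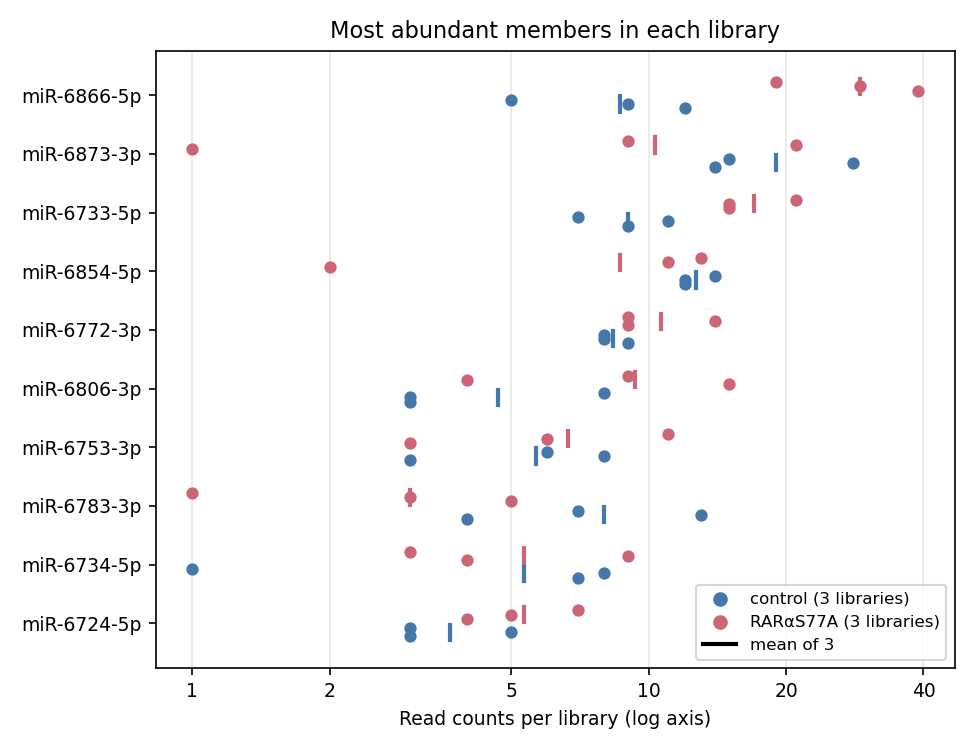
Read counts per library (x axis, log scale) of the 10 named members, in 3 control (blue) and 3 RARαS77A (red) libraries, with short vertical lines at the group means. For miR-6866-5p and miR-6733-5p every RARαS77A point lies to the right of every control point. miR-6873-3p and miR-6854-5p have their lowest points in the same RARαS77A library.

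miR-6866-5p was the most abundant member, with 113 counts, and had the largest log2 fold change of the 4 tested. Counts were 12, 9 and 5 in control replicates 1 to 3 and 39, 29 and 19 in RARαS77A replicates 1 to 3. All RARαS77A libraries lay above all controls. The level was 0.677 ± 0.259 and 3.57 ± 1.34 TMM CPM (SD, n = 3), a log2 fold change of 2.37 (SE 0.41, adjusted p = 0.00298, edgeR). The call held without any filter on counts (2.18, adjusted p = 2.73e-07, edgeR), without control replicate 3 (2.13, adjusted p = 0.00335, edgeR) and under total counts (1.80, adjusted p = 0.00766, edgeR). The fit without a filter covers all 1582 rows, and its smaller p-value is not read as stronger evidence. With a batch term that joins control replicate 3 to the RARαS77A libraries the estimate was 2.93. That estimate sets the RARαS77A libraries against control replicate 3 alone. A two-sided exact permutation test of the CPM of miR-6866-5p gave p = 0.1, the smallest that 3 against 3 libraries allow.

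MIR6866 lies on chr17:40161933-40162001 (plus strand) in an intron of CASC3, which encodes a core protein of the exon junction complex. The intron is 90 bases long, and the hairpin starts 21 bases after its 5′ splice site and ends at its 3′ splice site. Some annotated transcript has an exon there too. No 3p row of MIR6866 was listed, and all 113 counts of the hairpin came from its 5p arm. The gene for RARα itself, RARA, starts 147.2 kb further along the same chromosome and strand (chr17:40309192-40357643). Other series hairpins near RARA had few reads. MIR6867, at 115.5 kb, had 1 count from its 5p arm, in control replicate 2. MIR6884, at 282.8 kb, had 5p counts of 0, 1 and 1 in control cells and 2, 2 and 1 in RARαS77A cells, and its 3p arm had 2 counts in control cells alone. RARA mRNA was not measured here.

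miR-6733-5p was the other member called. Its counts were 9, 11 and 7 in control replicates and 15, 15 and 21 in RARαS77A replicates, again without overlap. The level was 0.703 ± 0.0565 and 2.07 ± 0.398 TMM CPM (SD, n = 3), a log2 fold change of 1.54 (SE 0.31, adjusted p = 0.00621, edgeR). Without a filter it was 1.36 (adjusted p = 0.0187, edgeR). Under total counts it was 0.97 (adjusted p = 0.0422, edgeR) and without control replicate 3 it was 1.43 (adjusted p = 0.0180, edgeR). With the batch term the estimate was 1.68, again against control replicate 3 alone. The exact permutation p was again 0.1. MIR6733 lies on chr1:43171652-43171712 (minus strand), at the 3′ end of a 234-base intron of EBNA1BP2, a ribosome biogenesis factor. Its 3p arm had 6 counts, of which 3 were in control cells and 3 in RARαS77A replicate 1.

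The other 2 tested members did not pass, and both were low in RARαS77A replicate 1. miR-6873-3p had 14, 28 and 15 counts in control cells and 1, 21 and 9 in RARαS77A cells (1.47 ± 0.399 and 1.24 ± 1.19 TMM CPM). Its log2 fold change was -0.24 (SE 0.70, adjusted p = 0.786, edgeR). It became 0.22 without RARαS77A replicate 1, 0.02 without control replicate 2 and -1.25 without RARαS77A replicate 2. miR-6854-5p had 12, 12 and 14 counts in control cells and 2, 11 and 13 in RARαS77A cells (1.02 ± 0.237 and 1.04 ± 0.695 TMM CPM). Its log2 fold change of 0.06 (SE 0.57, adjusted p = 0.942, edgeR) ran from -0.37 without RARαS77A replicate 3 to 0.44 without RARαS77A replicate 1, and was -0.51 under total counts. With standard errors of this size the data do not show that either miRNA was unaltered. MIR6873 lies on chr6:33287227-33287289 (minus strand) in a 128-base intron of WDR46. MIR6854 lies on chr9:98229149-98229217 (minus strand) in a 4267-base intron of TBC1D2. Both hairpins end at the 3′ splice site. Exons of some annotated transcripts overlap MIR6733 and MIR6873, as they do MIR6866.

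The next most abundant members had too few reads for the test, and their values are given as counts with the log2 ratio of mean TMM CPM. miR-6772-3p had 9, 8 and 8 counts in control cells and 9, 14 and 9 in RARαS77A cells. Its level was 0.665 ± 0.105 and 1.30 ± 0.321 TMM CPM, a log2 ratio of 0.96, and the groups did not overlap with either scaling. The ratio was 0.40 under total counts. miR-6806-3p had 3, 3 and 8 counts against 15, 4 and 9, a log2 ratio of 1.56, and the groups overlapped. The ratio ran from 0.99 without RARαS77A replicate 1 to 2.38 without control replicate 3, and was 0.99 under total counts. MIR6772 lies on chr16:57772289-57772352 (minus strand) in KIFC3, a kinesin motor gene, and MIR6806 on chr19:58334688-58334751 (plus strand) in ZSCAN22, a zinc finger gene. Their introns are 2691 and 7637 bases long, and each hairpin ends at the 3′ splice site.

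Among the rest of the named members the groups overlapped or nearly so. miR-6753-3p had 3, 8 and 6 counts in control cells and 3, 6 and 11 in RARαS77A cells, a log2 ratio of 0.86 that was 0.30 without RARαS77A replicate 3, 0.56 without control replicate 1 and 0.27 under total counts. miR-6734-5p had 7, 8 and 1 counts against 4, 9 and 3, a log2 ratio of 0.70 that was 0.12 without RARαS77A replicate 2, 0.23 without control replicate 3 and 0.12 under total counts. miR-6724-5p had 3, 5 and 3 against 4, 5 and 7, a log2 ratio of 1.19 with groups that were apart under TMM scaling but not under total counts (0.60). miR-6783-3p was the named member with the most negative log2 ratio, at -0.73, from 4, 13 and 7 counts in control cells and 5, 3 and 1 in RARαS77A cells. It was -1.36 without RARαS77A replicate 1, -0.31 without RARαS77A replicate 3, -0.37 without control replicate 2 and -1.34 under total counts. The hairpin of miR-6753-3p lies on chr11:68044794-68044957 (plus strand) in TCIRG1, a subunit of the vacuolar proton pump, and that of miR-6734-5p on chr1:43364648-43364715 (minus strand) in ELOVL1, a fatty acid elongase. The hairpin of miR-6783-3p lies on chr17:44934618-44934681 (minus strand) in KIF18B, a mitotic kinesin. All 3 end at a 3′ splice site. miR-6724-5p has 4 loci on chromosome 21, none at a splice site, and its reads cannot be assigned to any 1 of them.

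Over all 208 members, 8 had every RARαS77A library above every control in TMM CPM and 3 had every RARαS77A library below. Of all 1582 rows, 13.4% lay above and 11.5% below in this way. The 8 were miR-6866-5p, miR-6733-5p, miR-6772-3p, miR-6724-5p and 4 members with at most 9 counts each. The 3 below, miR-6805-5p, miR-6820-5p and miR-6874-3p, had 5, 9 and 3 counts, all in control cells. Under total counts 6 members lay above and 6 below, beside 6.19% and 20.2% of all rows. The members limited to few counts were named here after their values had been seen.

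The 5p and 3p arms carried similar numbers of reads in control cells. The 5p arm held 47.1%, 52.1% and 54.4% of the arm-assigned counts in control replicates 1 to 3 (51.2 ± 3.72%, SD, n = 3) and 58.3%, 58.7% and 55.0% in RARαS77A replicates 1 to 3 (57.3 ± 2.02%). The groups did not overlap, but the 95% Wilson intervals of single libraries did, and the interval lay above 50% in RARαS77A replicates 1 and 2 alone. As a median over hairpins with both arms listed and at least 10 counts the direction was the reverse. That 5p share was 64.6% in control cells and 50% in RARαS77A cells, and MIR6866 is not among these hairpins. Without miR-6866-5p the shares were 49.6 ± 4.55% and 51.8 ± 1.93%, and the groups overlapped. Over hairpins with both arms listed, which also leaves out miR-6866-5p, the mean shares were 51.4% in control and 57.4% in RARαS77A cells. How far the separation of the groups rested on that member was not tested. The plot of the 5p share by library gives both versions.

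**Figure D4:**
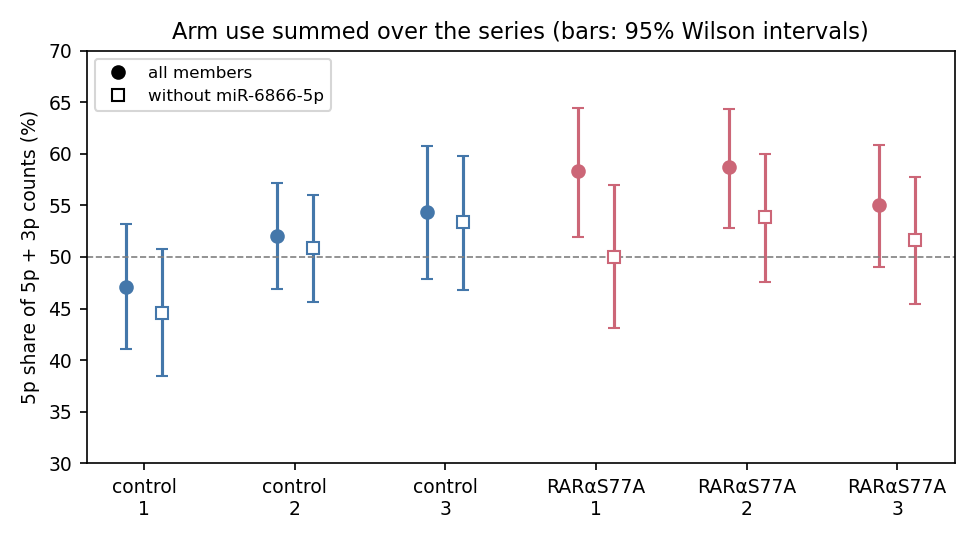
The share of arm-assigned series counts that came from the 5p arm (y axis, %) in each of the 6 libraries, for all members (filled circles) and without miR-6866-5p (open squares), with 95% Wilson intervals. The dashed line marks 50%; the open squares of the groups overlap.

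Single hairpins had stronger arm preferences than the sum. Both arms were listed and together had at least 10 counts over the 6 libraries for 34 hairpins. The 95% Wilson interval of the 5p share lay above 50% for 13 of them, below 50% for 9, and spanned 50% for 12. MIR6733 had 78 counts from the 5p arm and 6 from the 3p arm (92.9%, interval 85.3 to 96.7%). MIR6854 had 64 and 8 (88.9%, interval 79.6 to 94.3%). MIR6873 was the reverse, with 3 and 88 (3.30%, interval 1.13 to 9.25%). MIR6783 was less one-sided, with 16 and 33 (32.7%, interval 21.2 to 46.6%). Of hairpins named here after their values were seen, MIR6882 had 27 and 1, MIR6720 2 and 29, and MIR6716 1 and 20. A change of arm use between the groups was to be tested for hairpins with at least 10 counts in every library. None reached that limit (MIR6733 had 9 to 21 per library), and no such test was run. The plot of arm use by hairpin shows the full range.

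**Figure D5:**
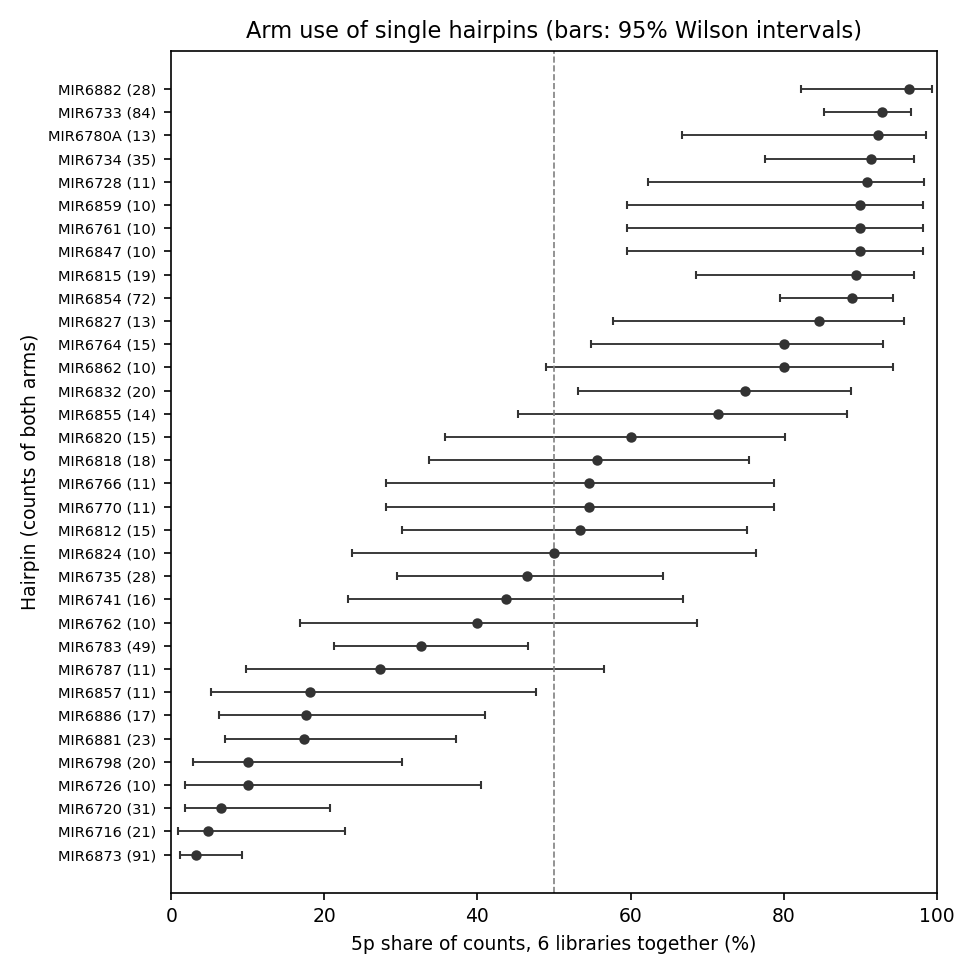
The 5p share of counts (x axis, %) for each of the 34 hairpins with both arms listed and at least 10 counts, all 6 libraries together, with 95% Wilson intervals and the number of counts in parentheses. The dashed line marks 50%; the shares run from MIR6873 (3.30%) to MIR6882, and 12 intervals cross the line.

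Mirtrons known before the series was numbered were set beside it. The table listed 13 mature miRNAs from 10 such hairpins, and 3 of the 13 were tested. Of the 3 tested, 1 was called higher in RARαS77A cells and 0 lower. This was miR-877-5p, from an intron of ABCF1, with 293, 521 and 298 counts in control cells and 441, 553 and 571 in RARαS77A cells. Its level was 28.7 ± 6.10 and 63.6 ± 6.63 TMM CPM, a log2 fold change of 1.15 (SE 0.20, adjusted p = 0.00307, edgeR). Under total counts it was 0.56 and the call was lost (adjusted p = 0.0767, edgeR). miR-877-3p, from the same hairpin, gave -0.35 (adjusted p = 0.399, edgeR) and miR-1226-3p gave 0.11 (adjusted p = 0.825, edgeR). In control replicate 1 miR-877-5p alone had 293 counts, more than the 260 of the whole miR-6716 to miR-6895 series.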

How the data were processed

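RNA of the 6 libraries was made into small RNA libraries (NEBNext kit) and sequenced on an Illumina HiSeq instrument. The authors deposited a table of whole-number counts, not normalized, and of TPM per miRNA and library. The deposited TPM equal the CPM of the counts (largest difference 4.74e-05). The submitters' processing notes name Bowtie. Its version, the reference, and the handling of reads with several matches were not given in the sources used here. Such reads could shift counts between loci or copies. The sources do not say that replicates are separate cultures, so p-values measure only the spread between these libraries.

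Counts of all miRNAs were fitted with edgeR 4.0.16 (R 4.3.3) with TMM factors, filterByExpr (minimum count of 10), glmQLFit and glmQLFTest, without a block. P-values were adjusted over all 506 tested miRNAs. Alternatives were total counts, upper quartile factors, totals without the 5 most abundant miRNAs, DESeq2 1.42.0, limma 3.58.1 (voom on counts, or log2 of the TPM with 1 or 10 added), no filter or a minimum of 5, a replicate block, a batch term joining control replicate 3 to the RARαS77A libraries, and each library left out. With the batch term the group difference sets the RARαS77A libraries against control replicate 3 alone, so only its estimates are given. The labels name no such batch. Intervals are 95% Wilson intervals (scipy 1.17.1), and depth was 9019266 to 11338580 counts per library. Every pair of libraries differed by more than sampling noise.

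Hairpins were placed in introns with GENCODE 29 on GRCh38. At all 129 loci with a RefSeq hairpin the coordinates were the same. Named members were those passing the filter and the 5 of each arm with the highest mean CPM. The members, lists and rules were chosen with earlier results of these data known. The leaving out of libraries for detection, and the rescaling of untested members, were chosen after seeing the data.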

Additional observations from a re-analysis of the deposited data

How the results depend on the processing

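Both called members stayed higher under every scaling, test and filter tried and without any single library. With the batch term the estimates were 2.93 for miR-6866-5p and 1.68 for miR-6733-5p. These rest on control replicate 3 as the only control and cannot decide whether the calls hold. Members called lower stayed at 0, and an adjusted p under 0.1 gave 2 higher and 0 lower. Over all miRNAs, 118 were higher and 107 lower. These became 51 and 213 under total counts, 55 and 221 or 59 and 218 with limma on log2 TPM plus 1 or 10 (which uses no TMM factors), and 76 and 55 with the batch term. Without a filter 162 were lower. Leaving out each library gave 101 to 125 higher, 92 to 116 lower, and 2 and 0 members.

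The numbers of the replicates did not pair the libraries (correlations of same-numbered deviations 0.0353, 0.103 and 0.0165). With a replicate block 107 miRNAs were higher and 94 lower, of which 2 and 0 were members, and not every library correlated best with its own number.

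The summed log2 difference of the series (0.52) was -0.061 under total counts, 0.73 with upper quartile factors and 1.04 over members with a mean count of at least 10 (0.48 to 0.61 without each library). For 5p arms (0.68) these were 0.10, 0.88 and 1.48, with 0.46 without miR-6866-5p (0.59 to 0.78 without each library). For 3p arms (0.33) they were -0.25, 0.54 and -0.24 (0.25 to 0.40). The 5p share was 64.6% in control and 50% in RARαS77A cells as a median over hairpins with both arms listed. It was 51.8% in RARαS77A cells without miR-6866-5p, and 51.4% and 57.4% summed over hairpins with both arms listed. Leaving out each library gave 49.6 to 53.2% and 56.7 to 58.5%. Members detected were 38 and 29.3 at 3 counts and 3 and 4 at 10 counts, and ran from 100.5 to 112 and from 81 to 86.5 without each library. Apart from those set by the number of members or counts kept, the cause of these shifts was not tested.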
